A study of Homo sapiens with 12 samples.

Results

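The genes of cholesterol synthesis, of its control by the sterol regulatory element-binding proteins (SREBPs) and of fatty acid synthesis were examined in HT29 cells, a line from a human colorectal adenocarcinoma. They were chosen by name as a list of 33 genes, with earlier results of these data known. All 33 were matched by symbol among the 60675 gene IDs of the count table. The list holds 7 genes of the mevalonate pathway, 11 of the later sterol steps, 5 SREBP regulators, 3 genes of sterol transport and lipoprotein uptake, and 7 of fatty acid synthesis. The cells were kept for 24 h with ACDW, a preparation of Aconitum carmichaeli Debeaux boiled in water, and its low, medium and high doses were 20, 100 and 500 µg/mL. Control cells had the vehicle alone, PBS with 2% DMSO. The 2% belongs to the vehicle solution, and extract solutions were added to wells that held growth medium. The extract stock was made in the same DMSO-containing PBS, and what diluted it for the lower doses is not stated. Each group had 3 libraries of 1 cell line, and nothing in the labels ties them to separate cultures, so the p-values measure only the spread between these samples, which may be technical. A longer treatment note kept with the libraries names a different herb (Poria cocos), whereas the groups here follow the titles and the treatment field.

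Cells build cholesterol from acetyl-CoA through mevalonate and squalene, and the same early steps supply isoprenoids. When membrane cholesterol is low, SCAP carries the SREBPs from the endoplasmic reticulum to the Golgi, where they are cut and released to switch on sterol and fatty acid genes, and when it is high INSIG proteins hold SCAP back. SREBF2 mainly serves the sterol branch and SREBF1 the fatty acid branch, whereas the oxysterol-sensing liver X receptors raise efflux genes such as ABCA1 and ABCG1. Colorectal epithelial lines in culture make both cholesterol and fatty acids.

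Of the 33 genes, 29 had at least 1 promoter window in the RefSeq table for GRCh38.p14, from 250 bases before to 50 bases after a start site, and they had 39 windows in all. The 4 short motifs linked with SREBP-driven promoters were looked for on both strands. The sterol regulatory element, searched as TCACNCCAC, was in 1 of the 39 windows, that of SREBF2, and in 1.13% of all 35116 windows of the table. CCAAT, the box bound by NF-Y, was in 25 of the 39 windows (64.1%) against 34.6% of all windows, and it was in 15 of the 20 windows of the mevalonate and sterol genes (75%). It was also in 6 of the 10 fatty acid windows (60%). Of the transport and uptake windows 2 of 3 held it, and of the regulator windows 2 of 6. GGGCGG, the box bound by Sp1, was in 35 of the 39 windows (89.7%) against 45% of all, and the E-box CACGTG was in 6 (15.4%) against 7.26%. A match is a description of the letters and not a measured binding site. Only these letters within these windows were searched, so a missing match does not show that a gene lacks the element. The stretches shown are those of the 4 genes with a dose trend described further on, before the start site and outside annotated exons, followed by the SREBF2 stretch with the sterol element. Capitals mark matches to any of the motifs on either strand, so that ATTGG is CCAAT and CCGCCC is GGGCGG on the other strand.
LSS (chr21:46228825-46229024, minus strand): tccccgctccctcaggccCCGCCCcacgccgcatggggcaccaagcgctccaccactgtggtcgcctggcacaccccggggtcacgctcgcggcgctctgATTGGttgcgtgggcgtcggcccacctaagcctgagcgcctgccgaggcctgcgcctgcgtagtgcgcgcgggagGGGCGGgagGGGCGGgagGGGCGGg
INSIG1 (chr7:155297628-155297775, plus strand): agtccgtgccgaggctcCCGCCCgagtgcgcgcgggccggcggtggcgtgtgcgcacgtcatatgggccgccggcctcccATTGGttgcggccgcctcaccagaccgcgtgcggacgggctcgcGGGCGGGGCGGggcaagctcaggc
HSD17B7 (chr1:162790452-162790701, plus strand): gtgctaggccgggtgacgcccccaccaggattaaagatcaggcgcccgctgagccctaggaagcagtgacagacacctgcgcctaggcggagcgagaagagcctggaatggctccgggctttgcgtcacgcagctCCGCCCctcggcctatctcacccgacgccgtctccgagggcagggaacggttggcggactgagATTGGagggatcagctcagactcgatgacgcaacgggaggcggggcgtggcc
MVK (chr12:109573581-109573792, plus strand): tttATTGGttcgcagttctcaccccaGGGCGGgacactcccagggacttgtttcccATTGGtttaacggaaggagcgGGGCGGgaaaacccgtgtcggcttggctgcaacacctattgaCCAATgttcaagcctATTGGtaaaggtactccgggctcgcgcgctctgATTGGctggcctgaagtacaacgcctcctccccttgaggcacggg
SREBF2 (chr22:41832962-41832990, plus strand): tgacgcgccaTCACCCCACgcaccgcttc
The LSS stretch held 4 Sp1 boxes and 1 NF-Y box, and the MVK stretch held 5 NF-Y boxes and 2 Sp1 boxes. In the INSIG1 stretch, 2 of the 3 Sp1 boxes overlapped by 1 base.

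The libraries held between 15941255 and 33866644 expected counts. High-dose replicate 2 had the lowest total and stood apart from its group: over 10582 genes its log2 CPM differed from the mean of the other 2 high-dose libraries with an SD of 0.50, against 0.10 to 0.28 in every other library, and this difference correlated with transcript GC content at −0.29 and with log transcript length at −0.54. Over the 32 genes of the list that were tested, its correlation with GC content was −0.51. Such correlations were not particular to this library: vehicle replicate 1 had −0.63 with log transcript length and medium replicate 2 had −0.42 with GC content. Over the genes of the list, medium replicate 2 had −0.72 and low replicate 1 −0.66 with GC content. All of these are descriptions across genes within single libraries. Chromosome M took 14.0% to 16.6% of the counts at the high dose and 7.41% to 11.1% in the other groups. All 8 intestinal epithelial markers were expressed, with CDX2 the lowest at 4.61 to 6.75 CPM. The 9 markers of other cell types summed to 9.80 to 11.0 CPM in vehicle and 12.7 to 15.2 CPM at the high dose, most of it from CD68, while PDGFRB, PTPRC, CD3E, VWF and ALB had at most 3 counts in any library. The part of these markers and of chromosome M in the results was not tested, except that the high-dose count given below was the same with chromosome M left out of the library sizes.

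In the vehicle cells the list spanned a wide range of levels, here in CPM (counts per 1000000 of the TMM-scaled library) per kb of the canonical transcript. SCD, the desaturase that makes monounsaturated fatty acids, was highest at 313, followed by SQLE, the squalene epoxidase, at 263 and DHCR7, which makes cholesterol from 7-dehydrocholesterol, at 169. FDPS, which makes farnesyl diphosphate, stood at 129, FASN, the fatty acid synthase, at 118, and FDFT1, the squalene synthase, at 102. In the mevalonate pathway the lowest was MVK, the mevalonate kinase, at 17.7, and among the sterol steps it was HSD17B7, a 3-ketosteroid reductase, at 12.5. Of the regulators, INSIG1 stood at 59.9, SREBF2 at 55.2, SREBF1 at 32.8, SCAP at 18.4 and INSIG2 at 8.13. The cholesterol exporter ABCA1 was low at 0.379 per kb, and so was the delta-5 desaturase FADS1 at 1.19. FADS2, the delta-6 desaturase, had 0 to 13 counts in any library and was the gene of the list that did not pass the filter on low counts, which left 32 tested. These 2 desaturase genes overlap on opposite strands, and ELOVL5, the elongase of polyunsaturated fatty acids, had at most 1 count in any library. Levels of genes that share sequence or position with another gene are uncertain, among them HSD17B7 and CYP51A1, which have pseudogenes, and ACAT2, MVK, CYP51A1 and SREBF1, which overlap a protein-coding gene on the other strand. So are those of EBP, TM7SF2, CYP51A1 and FADS2, which overlap a protein-coding gene on the same strand.

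**Figure D1:**
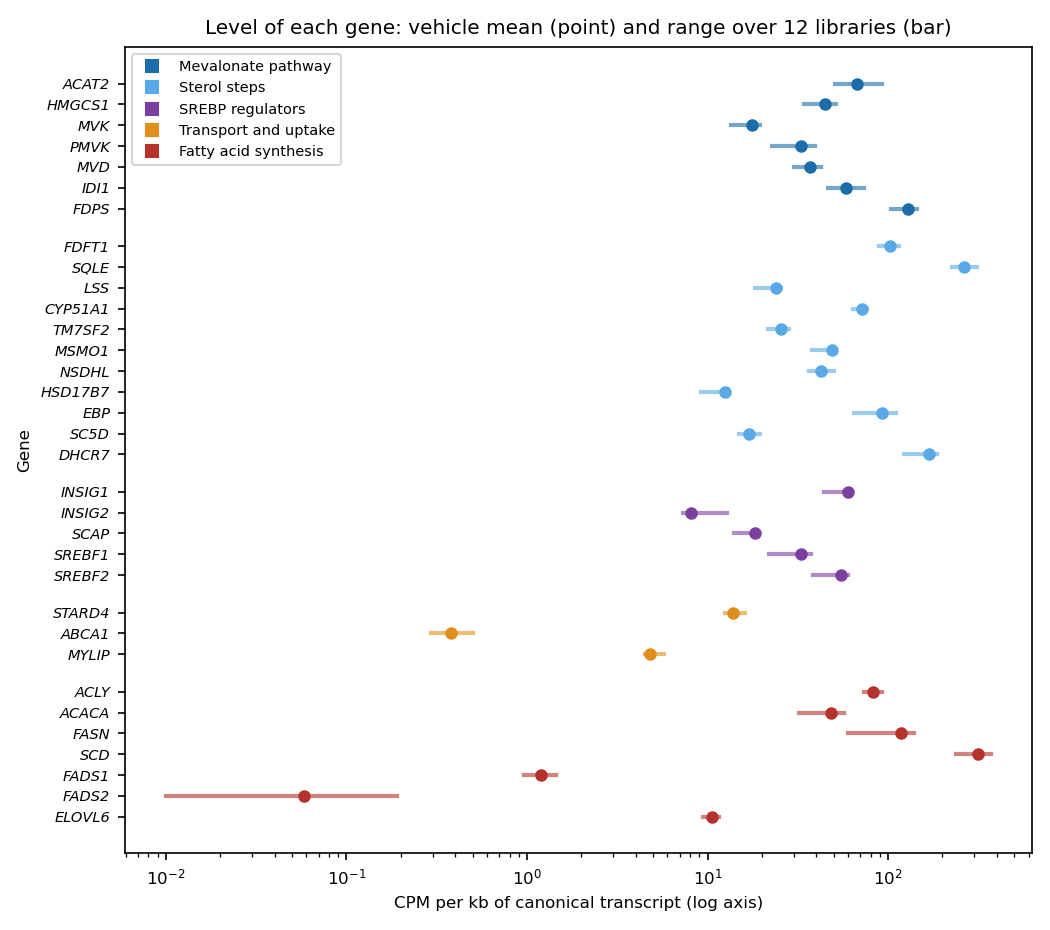
Level of each gene in CPM per kb of canonical transcript on a log axis, with the vehicle mean as a point and the range over all 12 libraries as a bar, coloured by role. SCD and SQLE are at the upper end at 313 and 263, and FADS2, drawn at 0.01 where a library had a count of 0, is at the lower end.

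At the high dose, LSS and INSIG1 were lower than in vehicle and no gene of the list was higher, by edgeR's quasi-likelihood test with Benjamini-Hochberg adjustment over 15374 genes (adjusted p under 0.05). Among all genes tested, 2.95% were called lower and 2.82% higher, and the count of 2 among 32 genes is read against these shares. Neither change was as large as 1.5-fold, and none of the list was a differentially expressed gene (DEG) by the study's fold minimum, against 2.93% of all genes. In bulk RNA a smaller share of cells with a transcript cannot be told apart from less of it per cell.

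LSS, the lanosterol synthase that closes the sterol ring (ENSG00000160285, chr21:46188141-46228824, GRCh38, minus strand), had 114, 119 and 117 CPM in the vehicle libraries, 119, 121 and 125 at the low dose, 115, 109 and 111 at the medium dose, with 99.4, 89.0 and 98.4 at the high dose. All 3 high-dose libraries lay below the other 9. The log2 fold change was −0.29 ± 0.06 (SE, n = 3 per group, edgeR adjusted p = 0.0203). It was −0.24 ± 0.05 when high replicate 2 was left out (edgeR adjusted p = 0.00525). The call was lost without vehicle replicate 2 (adjusted p = 0.0978) or vehicle replicate 3 (adjusted p = 0.0672), and over all 24 alternatives the edgeR or DESeq2 adjusted p ran from 3.34e-06 to 0.251.

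INSIG1, which holds SCAP in the endoplasmic reticulum and is itself an SREBP target (ENSG00000186480, chr7:155297776-155310235, GRCh38, plus strand), had 174, 175 and 174 CPM in vehicle, 183, 167 and 163 at the low dose, 162, 157 and 150 at the medium dose, with 145, 146 and 129 at the high dose. Every medium and high-dose library was below every vehicle library. The log2 fold change at the high dose was −0.32 ± 0.07 (SE, n = 3 per group, edgeR adjusted p = 0.0229), and −0.35 ± 0.06 without high replicate 2 (edgeR adjusted p = 0.00118). Leaving out vehicle replicate 1, 2 or 3 gave adjusted p values of 0.0602, 0.0995 and 0.0748, and leaving out high replicate 3 gave 0.0899, with a range from 1.38e-05 to 0.201 over the 24 alternatives (edgeR or DESeq2).

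**Figure D2:**
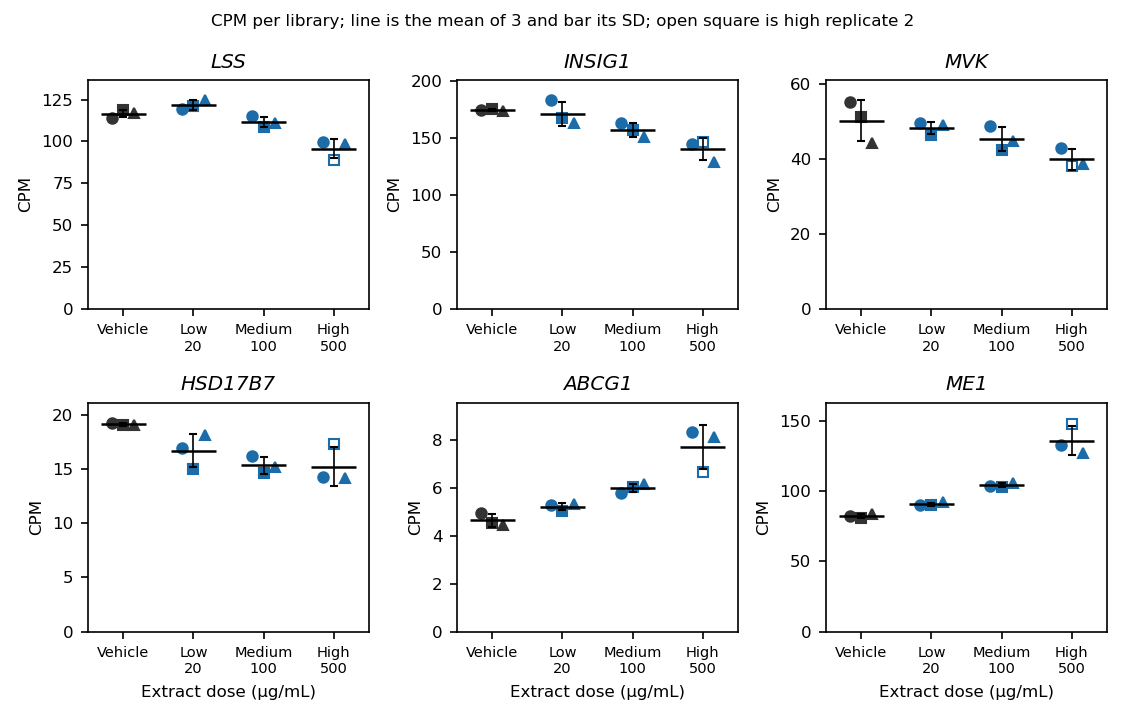
CPM of 6 genes in every library by dose in µg/mL, with the mean of 3 as a line and the SD as a bar, and high replicate 2 as an open square. LSS and INSIG1 are lowest at the high dose, with all 3 libraries below the vehicle libraries, while ABCG1 and ME1, which are not on the list of 33, are highest there.

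Across the doses, 4 genes of the list were called lower for a linear trend in the dose rank and none higher. Over all genes, 2.98% were called lower and 2.76% higher for such a trend by edgeR. A trend call does not mean a fall at every dose. LSS had mean CPM of 116.6 in vehicle, 121.8 at the low, 111.6 at the medium and 95.63 at the high dose. HSD17B7 had means of 15.35 CPM at the medium and 15.23 CPM at the high dose. The changes per dose step on the log2 scale were −0.11 ± 0.02 for INSIG1 (edgeR adjusted p = 0.0133), −0.11 ± 0.03 for MVK (0.0367), −0.10 ± 0.03 for LSS (0.0386) and −0.11 ± 0.03 for HSD17B7 (0.0409), each with its SE over 12 libraries. MVK, which phosphorylates mevalonate, had 55.1, 51.2 and 44.4 CPM in vehicle, 49.5, 46.3 and 49.0 at the low dose, 48.8, 42.5 and 44.8 at the medium dose, with 43.0, 38.1 and 38.6 at the high dose. All high-dose libraries of MVK lay below the vehicle libraries, although vehicle replicate 3 and high replicate 1 were close. HSD17B7 had 19.3, 19.0 and 19.1 CPM in vehicle, 16.9, 15.1 and 18.1 at the low dose, 16.2, 14.6 and 15.2 at the medium dose, with 14.3, 17.3 and 14.1 at the high dose. Every treated library of HSD17B7 was below every vehicle library, at each of the 3 doses. The INSIG1 trend call was lost without high replicate 3 (edgeR adjusted p = 0.0554), and LSS, MVK and HSD17B7 lost theirs without any of 9, 9 and 10 of the 12 libraries, with edgeR adjusted p values between 0.0560 and 0.141. For the trend without high replicate 2, 12 of the list were called lower, against 8.64% of all genes.

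High against low dose, a comparison without the vehicle libraries, gave LSS as the gene called, at −0.35 ± 0.06 (edgeR adjusted p = 0.00942), where 1.54% of all genes were called lower and 1.44% higher. The call was lost without low replicate 2 or 3 (edgeR adjusted p = 0.0511 and 0.0573), and with the offset for transcript GC content and length described further on, where LSS had −0.26 (edgeR adjusted p = 0.0512). INSIG1 had −0.29 ± 0.07 (edgeR adjusted p = 0.0541), and ABCA1, with 5.22, 4.79 and 4.75 CPM at the low dose and 3.51, 3.04 and 3.69 at the high dose, had −0.51 (edgeR adjusted p = 0.0511). The libraries of the 2 doses did not overlap for ABCA1, a gene of only about 4 CPM, and its vehicle libraries at 3.36, 4.03 and 4.44 lay mostly between them. Without vehicle replicate 1, ABCA1 was called as well as LSS. Leaving out high replicate 2, 7 genes of the list were called lower than at the low dose, against 3.35% of all genes, and none was called higher.

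The sterol genes called at the high dose were more in number when high replicate 2 was left out, as were the genes called over the whole table. ACAT2, the cytosolic thiolase that joins the acetyl-CoA units, had 106, 101 and 102 CPM in vehicle and 77.2, 141 and 83.4 at the high dose, and the 141 is high replicate 2. HMGCS1, the HMG-CoA synthase, had 220, 242 and 255 CPM in vehicle and 195, 256 and 183 at the high dose. IDI1, the isopentenyl diphosphate isomerase, had 168, 158 and 155 against 127, 201 and 128, and FDPS had 196, 177 and 176 against 149, 204 and 148. In each of these 4 genes, high replicates 1 and 3 were below every vehicle library and high replicate 2 above every vehicle library. With all libraries their log2 fold changes lay between −0.18 and −0.04, and none was called.

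Without high replicate 2, 13 of the 32 genes were called lower at the high dose and none higher, where 8.89% of all genes were called lower and 9.83% higher. This alternative leaves 2 high-dose libraries, and leaving out this library was chosen with its deviation known. The 13 were 6 of the 7 mevalonate genes, 6 of the 11 sterol genes and INSIG1. In the mevalonate pathway the log2 fold changes of the called genes were −0.35 for ACAT2, −0.34 for HMGCS1, −0.30 for MVK, −0.45 for the phosphomevalonate kinase PMVK, −0.32 for IDI1 and −0.30 for FDPS, with edgeR adjusted p from 0.00100 to 0.0262. MVD, the mevalonate diphosphate decarboxylase, had 76.2, 63.9 and 59.2 CPM in vehicle and 57.7, 54.5 and 55.4 at the high dose, and its −0.23 did not pass (edgeR adjusted p = 0.111). In MVD all 3 high-dose libraries were nonetheless below the vehicle libraries.

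Among the sterol steps, the 6 called without high replicate 2 were LSS, HSD17B7 at −0.43, EBP, the sterol isomerase, at −0.47, MSMO1, the C4-methylsterol oxidase, at −0.30, NSDHL, the C4 decarboxylating dehydrogenase, at −0.19, and FDFT1 at −0.19 (edgeR adjusted p from 0.00210 to 0.0353). EBP had 125, 93.8 and 93.0 CPM in vehicle and 77.5, 99.1 and 72.5 at the high dose, so that high replicate 2 alone lay among the vehicle libraries. MSMO1 had 112, 104 and 112 CPM in vehicle and 92.0, 110 and 84.9 at the high dose. The demethylase CYP51A1 had −0.15 (edgeR adjusted p = 0.0672) and the lathosterol oxidase SC5D −0.15 (edgeR adjusted p = 0.107). SQLE at −0.05, DHCR7 at 0.00 and the C14 reductase TM7SF2 at 0.05 stood apart from these values and overlapped the vehicle libraries.

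High replicates 1 and 3 were both below every vehicle library in 17 of the 32 genes, against 25.2% of all genes tested. These were all 7 mevalonate genes, 8 of the 11 sterol genes, INSIG1 and INSIG2. Both were above every vehicle library in 5 genes, SCAP, SREBF2, MYLIP, ACLY and SCD, against 25.2% of all genes. With all 3 high-dose libraries, 5 genes were below every vehicle library, namely LSS, INSIG1, MVK, MVD and HSD17B7, against 11.5% of all genes.

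**Figure D3:**
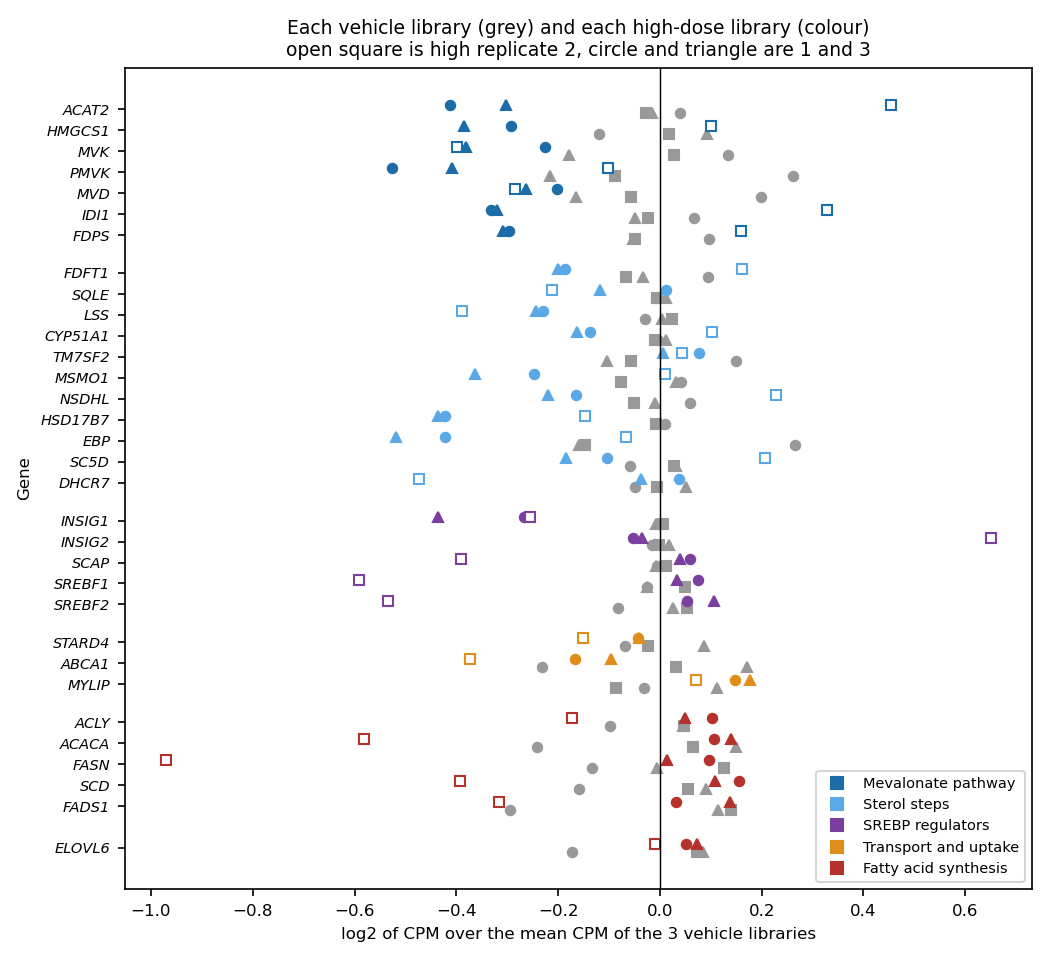
Each vehicle library in grey and each high-dose library in colour, as log2 of CPM over the vehicle mean, for the 32 genes tested. High replicates 1 and 3 lie left of the vehicle libraries in all 7 mevalonate genes, while high replicate 2, the open square, lies to the right in ACAT2 and IDI1 and far to the left in FASN, SREBF1 and SREBF2.

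An offset per library for transcript GC content and length, which keeps all 12 libraries, gave 10 genes called lower at the high dose and none higher. Of all 15374 genes, 1132 (7.36%) were called lower and 1040 higher by edgeR with this offset. The 10 genes of the list were MVK, PMVK, MVD and IDI1 of the mevalonate pathway, LSS, CYP51A1, MSMO1, HSD17B7 and EBP of the sterol steps, and INSIG1. In this fit the median log2 fold change was −0.21 over the mevalonate genes, −0.14 over the sterol genes and −0.01 over the fatty acid genes, and −0.01 over all genes. The fold changes of ACAT2 at −0.12 and HMGCS1 at −0.21 did not pass (edgeR adjusted p = 0.314 and 0.177).

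**Figure D4:**
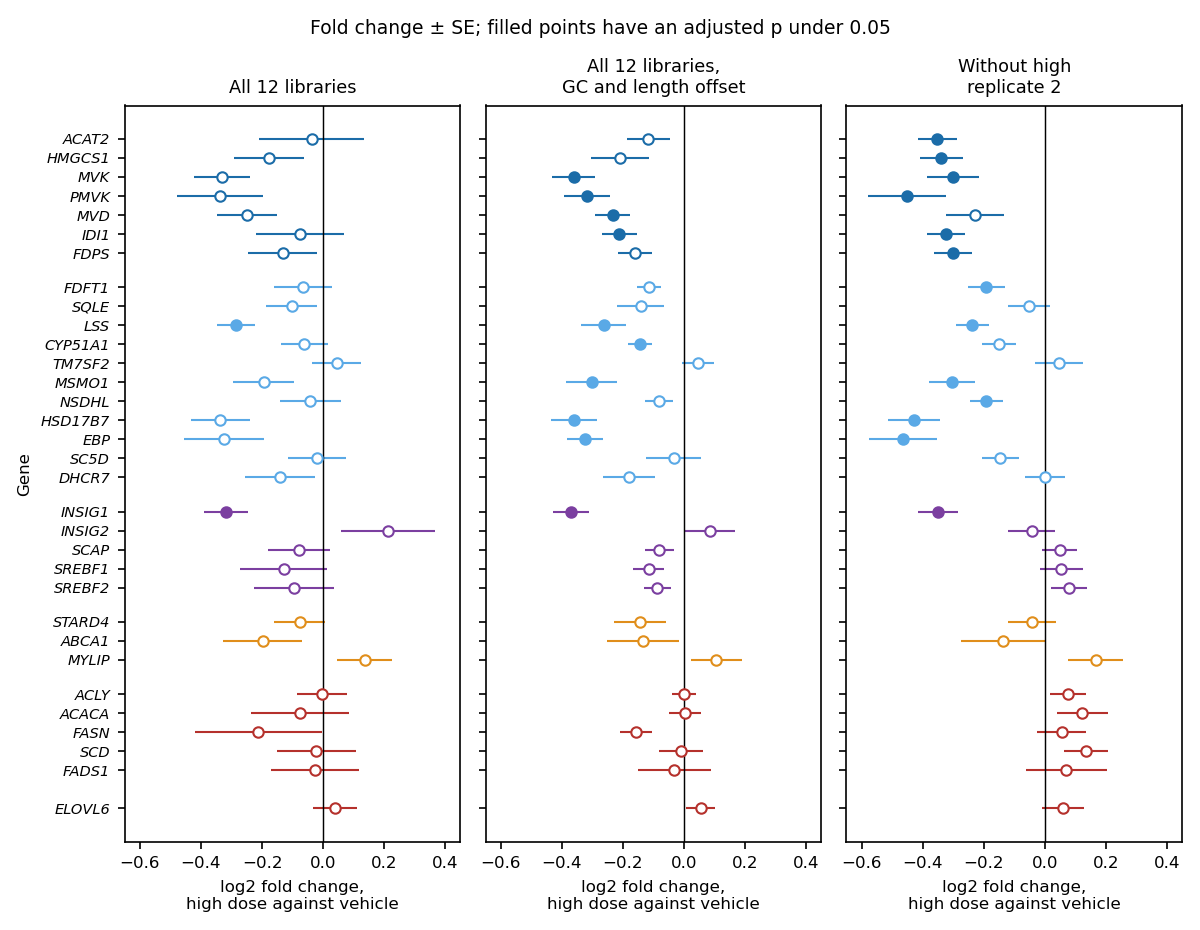
Log2 fold change with its SE for each gene at the high dose against vehicle, in 3 fits: all 12 libraries, all 12 with an offset for transcript GC content and length, and without high replicate 2. Filled points have an adjusted p under 0.05, and their number goes from 2 to 10 and 13, all left of 0.

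The SREBP regulators other than INSIG1 were not called at any dose. SREBF2 had 273, 300 and 294 CPM in vehicle and 300, 200 and 311 at the high dose, and SREBF1 had 158, 166 and 158 against 169, 107 and 165. Both were thus well below the vehicle range in high replicate 2 and within or above it in the other 2 libraries. SCAP, the carrier of the SREBPs, had 78.0, 79.0 and 77.9 CPM in vehicle and 81.6, 59.7 and 80.5 at the high dose. Leaving it out, the log2 fold changes were 0.08 for SREBF2, 0.05 for SREBF1 and 0.05 for SCAP (edgeR adjusted p from 0.368 to 0.633). INSIG2, which shares the role of INSIG1, had 28.7, 28.9 and 29.3 CPM in vehicle and 27.9, 45.5 and 28.3 at the high dose, and changed from 0.21 to −0.04 on the log2 scale when high replicate 2 was left out.

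In sterol transport, uptake and efflux, no gene of the list was called. STARD4, a carrier of cholesterol in the cytosol, had 61.4, 63.3 and 68.4 CPM in vehicle and 62.5, 58.0 and 62.6 at the high dose (log2 fold change −0.08 ± 0.08). MYLIP, an E3 ligase and liver X receptor target that marks lipoprotein receptors for degradation, had 14.4, 13.8 and 15.9 against 16.3, 15.4 and 16.6 (0.14 ± 0.09). ABCA1 had 3.51, 3.04 and 3.69 at the high dose, a log2 fold change of −0.20 ± 0.13 against vehicle. All 3 overlapped the vehicle libraries.

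Fatty acid synthesis had no called gene in either direction at any dose against vehicle in the edgeR fit of all 12 libraries. FASN had 912, 1091 and 996 CPM in vehicle and 1069, 510 and 1009 at the high dose. SCD had 1470, 1707 and 1748 in vehicle and 1830, 1250 and 1771 at the high dose, and ACACA, the acetyl-CoA carboxylase, had 409, 506 and 536 against 521, 323 and 533. In these 3 genes high replicate 2 was below every vehicle library and vehicle replicate 1 was the lowest of its group. ACLY, which makes cytosolic acetyl-CoA from citrate, had 333, 368 and 368 CPM in vehicle and 382, 316 and 369 at the high dose, and the elongase ELOVL6 had 62.1, 73.6 and 74.2 against 72.5, 69.5 and 73.6. All 6 tested genes of this group had, without high replicate 2, positive log2 fold changes, from 0.06 to 0.13, and 0 were called. The median was 0.07 over these 6 genes and −0.27 over the 18 mevalonate and sterol genes, beside −0.01 over all genes, and with all libraries the medians were −0.02, −0.14 and 0.01. The difference between the 2 groups of genes was not tested.

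The medium and low doses gave 0 called genes of the list by edgeR, where 1.01% and 0.124% of all genes were called. At an unadjusted p under 0.05 there was 1 gene at each dose, HSD17B7 at the medium dose (−0.32 on the log2 scale) and ABCA1 at the low dose (0.31), where 11.7% and 7.95% of all genes had such a p, and DESeq2 on all 12 libraries likewise called 0 at both. All 3 medium-dose libraries were below every vehicle library in 10 of the 32 genes, against 14.1% of all genes. These were ACAT2, PMVK, FDPS, FDFT1, CYP51A1, MSMO1, NSDHL, HSD17B7, EBP and INSIG1, so that 9 of the 18 mevalonate and sterol genes were among them and none of the fatty acid genes. In the other direction, all 3 medium-dose libraries were above every vehicle library in 3 genes, SQLE, ACLY and SCD, against 14.5% of all genes. All 3 low-dose libraries were above every vehicle library in 7 genes, against 11.4% of all genes. These were LSS, SQLE, SREBF2, ABCA1, ACLY, ACACA and SCD. All 3 were below every vehicle library in 2 genes, HSD17B7 and INSIG2, against 9.61% of all genes. The changes were small: the median log2 fold change at the medium dose was −0.10 over the mevalonate genes and −0.07 over the sterol genes, and all 6 fatty acid genes were above 0 with a median of 0.13. At the low dose the medians were −0.04, −0.02 and 0.11. CYP51A1 shows the size of such a shift, with 225, 224 and 227 CPM in vehicle and 210, 218 and 217 at the medium dose.

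Per library, the median log2 ratio of the mevalonate genes to the vehicle mean was −0.29, 0.10 and −0.32 in the 3 high-dose libraries, and −0.04, −0.12 and −0.10 at the medium dose. For the sterol genes it was −0.16, 0.01 and −0.20 at the high dose, and for the fatty acid genes 0.10, −0.34 and 0.10. High replicate 2 thus went the other way from replicates 1 and 3 in the mevalonate and fatty acid groups.

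**Figure D5:**
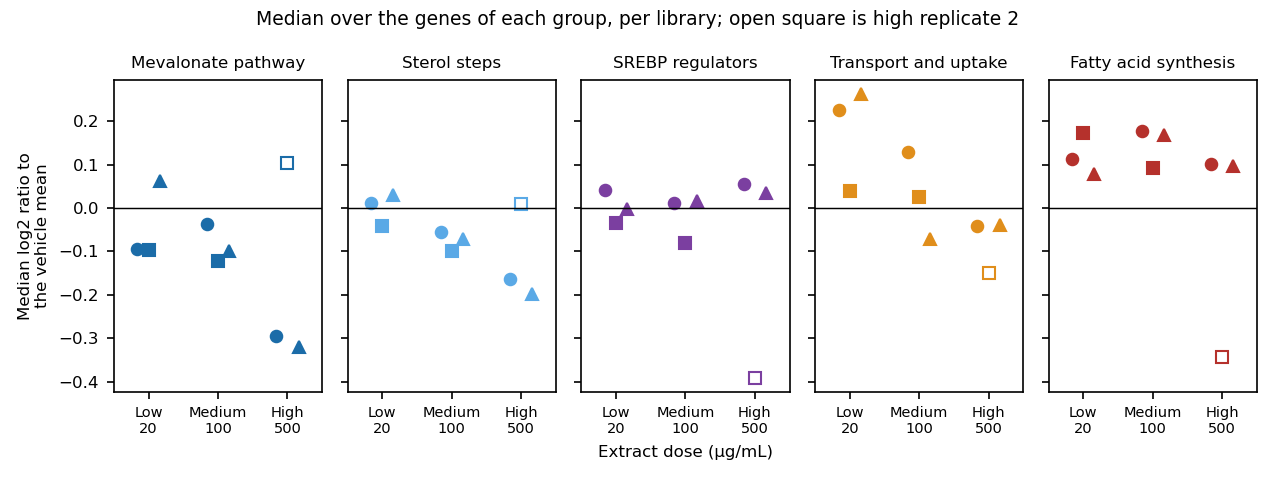
Median over the genes of each role group of the log2 ratio to the vehicle mean, for each library by dose in µg/mL, with 3 libraries per dose and high replicate 2 as an open square. The mevalonate medians at the high dose are −0.29 and −0.32 in replicates 1 and 3 and 0.10 in replicate 2, and the fatty acid medians are 0.10, 0.10 and −0.34.

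Genes around the list were counted in 4 pathway lists of 46 genes, of which 45 were tested. The lists were chosen with earlier results of these data known, so their counts are descriptions only. At the high dose 4 were called higher and 0 lower by edgeR, beside the 2.82% of all genes called higher and 2.95% called lower. By list, these were 0 of 8 genes of SREBP processing, 0 of 8 of the isoprenoid branch, 2 of 10 of liver X receptors and efflux, and 2 of 19 of fatty acid supply. ABCG1, which exports cholesterol to lipoproteins, had 4.95, 4.52 and 4.44 CPM in vehicle, 5.26, 5.04 and 5.33 at the low dose, 5.79, 6.01 and 6.14 at the medium dose, with 8.33, 6.65 and 8.12 at the high dose. Each group lay above the dose below it without overlap, and the high-dose log2 fold change was 0.75 ± 0.10 (edgeR adjusted p = 0.00108). NR1H3, the liver X receptor alpha, had 50.7, 46.9 and 44.4 CPM in vehicle and 59.1, 60.1 and 56.1 at the high dose (0.30 ± 0.07, edgeR adjusted p = 0.0238). The NR1H3 call was lost without vehicle replicate 2 or 3 or high replicate 1 (edgeR adjusted p = 0.0904, 0.0841 and 0.0664). It was also lost with edgeR or DESeq2 on the 2 groups alone, with no filter on low counts and with a replicate block. Its edgeR or DESeq2 adjusted p reached 0.236 over the 24 alternatives. The ABCG1 call was lost with edgeR on the 2 groups alone (edgeR adjusted p = 0.0553).

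ME1, the cytosolic malic enzyme that yields NADPH, had 82.1, 80.5 and 83.4 CPM in vehicle, 89.8, 89.7 and 91.9 at the low dose, 104, 103 and 106 at the medium dose, with 133, 147 and 127 at the high dose. The groups were in the order of the dose with no overlap, and the log2 fold change was 0.73 ± 0.07 at the high dose (edgeR adjusted p = 4.36e-05) and 0.34 ± 0.07 at the medium dose (edgeR adjusted p = 0.0272). The medium-dose call was lost when any 1 vehicle, medium or low library was left out, with edgeR adjusted p values of 0.0523 to 0.157. ELOVL1, the elongase of very long chain fatty acids, had 165, 162 and 169 CPM in vehicle and 220, 233 and 209 at the high dose (0.42 ± 0.08, edgeR adjusted p = 0.00742). The ELOVL1 call was lost with edgeR on the 2 groups alone (edgeR adjusted p = 0.0972). ABCG1 and ME1 were over 1.5-fold at the high dose. Without high replicate 2, 6 genes of the pathway lists were called higher and 1 lower, beside 9.83% and 8.89% of all genes, the latter being TECR, a reductase of very long chain fatty acid elongation, at −0.25 (edgeR adjusted p = 0.0200).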

How the data were processed

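The 12 HT29 libraries, 3 per group, were made with a directional kit. The authors used Trim Galore 0.6.5 for trimming, STAR 2.7.3a for alignment to GRCh38 and RSEM 1.3.3 for expected counts per gene (versions from the submitters' processing notes). The study's published methods name other versions of Trim Galore and STAR. RSEM's strand setting is not given in the sources used here. The deposited expected counts, not normalized, were rounded to whole numbers. edgeR 4.0.16 (R 4.3.3) was run on all 12 libraries in 1 fit with filterByExpr, TMM and robust quasi-likelihood, which tested 15374 genes, with group as the only term, and with the dose rank (0 to 3) for the trend. Adjusted p values are Benjamini-Hochberg over all genes tested, with a threshold of 0.05, and DEGs also had a fold change over 1.5. Transcript length and GC content came from the GENCODE canonical transcript. Promoters came from RefSeq, without ACAT2, FDFT1, SQLE and FASN. DESeq2 1.42.0 and the other alternatives are given in the closing section. The test scripts were tested on simulated data. The genes named are all 33 of the list, the pathway genes called at the high dose, and those on which a result turns, of which TECR, ELOVL5 and the cell type markers were added. The members and lists were chosen with earlier results of these data known. Total expected counts per library set the precision, and a count of 3 corresponded to 0.0909 to 0.212 CPM, for counting error only.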

Additional observations from a re-analysis of the deposited data

Results flagged for a closer look

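The response of LSS to the extract differed between the high and the low dose, with a log2 fold change of −0.35 (high against low) by edgeR's quasi-likelihood test (adjusted p = 0.00942). All 3 high-dose libraries, at 89.0 to 99.4 CPM, lay below the 3 low-dose libraries at 119 to 125 CPM. The call was lost without low replicate 2 or 3 (edgeR adjusted p = 0.0511 and 0.0573) and with an offset for transcript GC content and length, where LSS had −0.26 with no replicate block and with it (edgeR adjusted p = 0.0512 and 0.0825). The vehicle libraries lay at 114 to 119 CPM.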

How the results depend on the processing

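At the high dose, where 2 genes were called lower, DESeq2 on all libraries called 4 and on 2 groups 1, edgeR on 2 groups 0, no filter on low counts 0, a filter of at least 10 counts in every library 4, the GC and length offset 10 with no replicate block and 9 with the replicate block, and a fold over 1.5 gave 0. Leaving out 1 library at a time gave 0 (without vehicle replicate 2) to 13 (without high replicate 2). Added after seeing the data, DESeq2 without high replicate 2 called 14 and the offset without it 16. Over all genes these 2 fits called 2649 and 3577 of 15674, where the main fit called 887 of 15374. DESeq2 on all libraries called 1300 of all genes, the offset 2172 and, with the replicate block, 1828. DESeq2 and edgeR on 2 groups called 525 and 181, no filter 755 and the filter of 10 counts 845. Leaving out vehicle replicate 2 or high replicate 2 gave 433 and 2934 over all genes. None of these settings called a gene of the list higher at the high dose. At the medium dose, where 0 were called, edgeR or DESeq2 on 2 groups called 1, leaving out libraries gave 0 to 1, and DESeq2 and the offset, both without high replicate 2, gave 1 and 4, of which ACACA was higher and the others lower. Over all genes at the medium dose, the main fit called 155, DESeq2 and edgeR on 2 groups 787 and 624, and these last 2 fits 1176 and 1846. Leaving out 1 library gave 59 (without vehicle replicate 2) to 1077 (without high replicate 2) over all genes at the medium dose. The 1 gene of the list, HSD17B7, was called without high replicate 2. At the low dose, also 0, DESeq2 and the offset, both without high replicate 2, gave 1 and 1, which was SCD, called higher. Over all genes at the low dose they called 447 and 709, against 19 in the main fit. High against low dose, where 1 was called, DESeq2 gave 3, library sizes without chromosome M 2, the filter of 10 counts 3, the offset 6 (FASN among them but not LSS) and, with the replicate block, 5, leaving out libraries 0 to 7, DESeq2 and the offset without high replicate 2 gave 7 and 14, and a fold over 1.5 gave 0. Over all genes for this comparison, the main fit called 458, DESeq2 747, the offset 1221 and, with the block, 971. Library sizes without chromosome M called 459 of all genes and the filter of 10 counts 437. Leaving out 1 library gave 225 (without low replicate 2) to 1143 (without high replicate 2) over all genes. DESeq2 and the offset without high replicate 2 called 1022 and 1905 of all genes. For the trend, where 4 were called, no filter gave 1, the replicate block 2, the offset 10 and, with the block, 8, leaving out libraries 0 to 12, and DESeq2 and the offset without high replicate 2 gave 14 and 14. Over all genes the main fit called 882 for the trend, no filter 644 and the replicate block 592. The offset called 1953 of all genes and, with the block, 1605. For the trend, leaving out 1 library gave 452 (without high replicate 3) to 2744 (without high replicate 2) over all genes. DESeq2 and the offset without high replicate 2 called 2984 and 3123 of all genes for the trend. The cause of these changes between settings was not tested. The same-numbered libraries had correlations of their deviations between −0.54 and 0.37, so the numbers were not taken to pair them. The replicate block gave 3 called genes of the list at the high dose, where it called 629 of all 15374 genes. Changes of less than 1.5-fold were the size at issue here, and 3 libraries per group and the spread of the high-dose group limit them.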
